A study of Mus musculus with 6 samples.

Results

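The genes described here are 32 genes of protein folding, quality control and stress signalling in the endoplasmic reticulum (ER), measured in the left ventricle of mice given 2-methyl-2-thiazoline (2MT) or saline. They were taken by symbol, as the probe sets that the array platform's annotation assigns to each gene; the rule uses no measured value, although the list of genes was drawn up with earlier results of these data known. All 32 matched at least 1 probe set, out of 19938 genes named on the array, and all 32 were bright enough to be tested, out of 10547 genes tested. The 2MT group held 3 arrays of left ventricle from male C57/BL6 mice aged 10 weeks, 4 h after a subcutaneous dose of 50 mg/kg of 2MT. The saline group held 3 arrays of the same strain, sex, age and tissue. All 6 samples carry 1 protocol text, which describes the 2MT injection only, and no other statement gives the time and route of the saline treatment. The labels do not say that the arrays stand for separate mice, so the spread behind each p-value may be a technical one. Values are log2 signals, in which a difference of 1 is a doubling.

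Proteins that are secreted or sit in membranes enter the ER through the SEC61 channel and fold there with the help of chaperones, enzymes that form disulfide bonds, and lectins that hold glycoproteins. Proteins that fail to fold are passed back to the cytosol for destruction, a process called ER-associated degradation. When unfolded proteins accumulate, the sensors IRE1, ATF6 and PERK start the unfolded protein response, which raises the transcription of the chaperone genes. In heart muscle the ER is continuous with the sarcoplasmic reticulum, the calcium store of contraction.

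Many chaperone genes are known to carry in their promoters the ER stress response element, to which ATF6 binds together with the CCAAT-binding factor NF-Y. It was searched as CCAAT, 9 bases of any kind, then CCACG, on both strands of RefSeq promoter windows of the GRCm38.p6 build, which run from 250 bases before to 50 bases after each annotated transcript start. Of the 32 members, 27 matched a window, and Hyou1, Manf, Derl1, Atf6 and Sec61a1 did not. Exact matches lay in the windows of 8 of these 27 members (29.6%), against 37 of all 27025 genes with a window (0.137%), or 39 of all 32851 windows (0.119%). With 1 mismatch allowed among the 10 fixed letters, a setting chosen after the exact matches were seen, the counts were 13 members (48.1%) and 466 genes (1.72%). The 9 elements of these 8 members lay between 212 and 26 bases before the start, 6 on the strand of the gene and 3 on the opposite strand. They are printed because they mark which members carry the element, each on the strand of its gene with 10 bases on either side. Capitals mark the fixed letters, which read CGTGG and ATTGG where the element lies on the opposite strand.
Hspa5 (chr2:34772015-34772053, plus strand): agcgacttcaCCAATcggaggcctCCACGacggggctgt
Hsp90b1, farther element (chr10:86705628-86705666, minus strand): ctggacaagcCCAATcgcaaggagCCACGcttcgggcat
Hsp90b1, nearer element (chr10:86705523-86705561, minus strand): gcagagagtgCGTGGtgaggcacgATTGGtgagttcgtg
Creld2 (chr15:88819510-88819548, plus strand): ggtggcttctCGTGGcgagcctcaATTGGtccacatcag
Dnajc3 (chr14:118937817-118937855, plus strand): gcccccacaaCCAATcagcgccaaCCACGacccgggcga
Pdia6 (chr12:17266481-17266519, plus strand): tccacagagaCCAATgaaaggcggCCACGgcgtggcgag
Calr (chr8:84847065-84847103, minus strand): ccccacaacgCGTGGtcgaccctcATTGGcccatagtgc
Canx (chr11:50325790-50325828, minus strand): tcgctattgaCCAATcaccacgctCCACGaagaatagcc
Syvn1 (chr19:6046522-6046560, plus strand): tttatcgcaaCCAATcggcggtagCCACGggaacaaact

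A related element, ERSE-II, was searched as ATTGG, 1 base of any kind, then CCACG, on both strands, and was found in 2 of the 27 members (7.41%), against 12 of 27025 genes (0.0444%) and 12 of 32851 windows (0.0365%). It lay in the window of Herpud1, before the start, and in that of Dnajb11, after the start. The XBP1 site TGACGTGG, on either strand, was found in 1 member, Txndc5 (3.7%), against 193 genes (0.714%) and 222 windows (0.676%). No 2 matches of these motifs overlapped in a member's window. A match is a description of these letters and does not show binding. The Herpud1 and Txndc5 matches are shown with 10 bases on either side and the fixed letters in capitals.
Herpud1 (chr8:94386367-94386397, plus strand): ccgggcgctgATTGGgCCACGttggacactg
Txndc5 (chr13:38528035-38528062, minus strand): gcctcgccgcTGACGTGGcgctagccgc

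The tissue label was checked against markers. The 10 cardiomyocyte markers averaged 12.23 to 12.26 on the 2MT arrays and 12.23 to 12.25 on the saline arrays, and 0 of 10 passed the test in limma (0 at an unadjusted p under 0.05). Of 5 atrial markers, Sln and Bmp10 were under the dim limit of 4.345 on all 6 arrays, and Nppa (9.91 to 10.59) and Myl4 (4.80 to 6.47) were above it on all 6. Myl7 was at 3.38 to 3.47 on the 2MT arrays and at 3.58, 4.95 and 3.63 on saline 1, 2 and 3, under the limit on all arrays except saline 2. Saline 2 also held the highest Myl4 and Sln but the lowest Nppa, and the summed linear signal of the 5 was 1261 to 1511 in 2MT and 1242, 1100 and 1601 on saline 1, 2 and 3. Neither of the 2 tested passed (0 at an unadjusted p under 0.05), their part in the results was not tested, and without saline 2 there were likewise 0 members that passed. Jchain, a marker of plasma cells, which are rich in ER, was under that limit on all 6 arrays (2.01 to 2.33). Among 7 endothelial markers Pecam1 fell by 0.33 (limma adjusted p = 0.02) and the other 6 did not pass. An unadjusted limma p under 0.05 was held by 3 (42.9%, against 17.8% of all genes). The groups did not overlap in 4 (57.1%, against 21.1% of all genes), with Kdr higher and Pecam1, Vwf and Fabp4 lower in 2MT. The summed linear signal of the 7 was 1877 to 2014 in 2MT and 1917 to 2066 in saline. Among 8 macrophage markers Lyve1 fell by 0.34 (limma adjusted p = 0.0353) and the other 7 did not pass, with a summed linear signal of 732 to 820 in 2MT and 783 to 927 in saline. The part of these cell types in the results for the members was not tested. In bulk tissue, fewer cells of a type and less RNA per cell cannot be told apart.

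None of the 32 members passed an adjusted p of 0.05 in limma, and differences were small, from -0.31 (Edem1) to 0.30 (Pdia4) on the log2 scale, or at most 1.24-fold. Of all 10547 genes, 488 passed (4.63%), 2.22% higher and 2.41% lower in 2MT. At an unadjusted p under 0.05 there were 8 members (25%, against 17.8% of all genes), of which 6 were higher in 2MT (Hspa5, Pdia3, Pdia4, Calr, Xbp1 and Atf6, against 9.6% of all genes) and 2 lower (Edem1 and Sec61b, against 8.15%). The groups did not overlap in 6 members (18.8%), a share near the 21.1% of all genes: Pdia3, Pdia4, Calr and Sel1l lay higher (11.1% of all genes), and Edem1 and Sec61b lower (10.1%). The mean was lower in 2MT for 13 members and higher for 19, and for 48.1% and 50.8% of all genes. The median difference was 0.02 over the members and 0.003 over all genes. For the members it became -0.006 without 2MT 1 and 0.06 without 2MT 2.

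**Figure D1:**
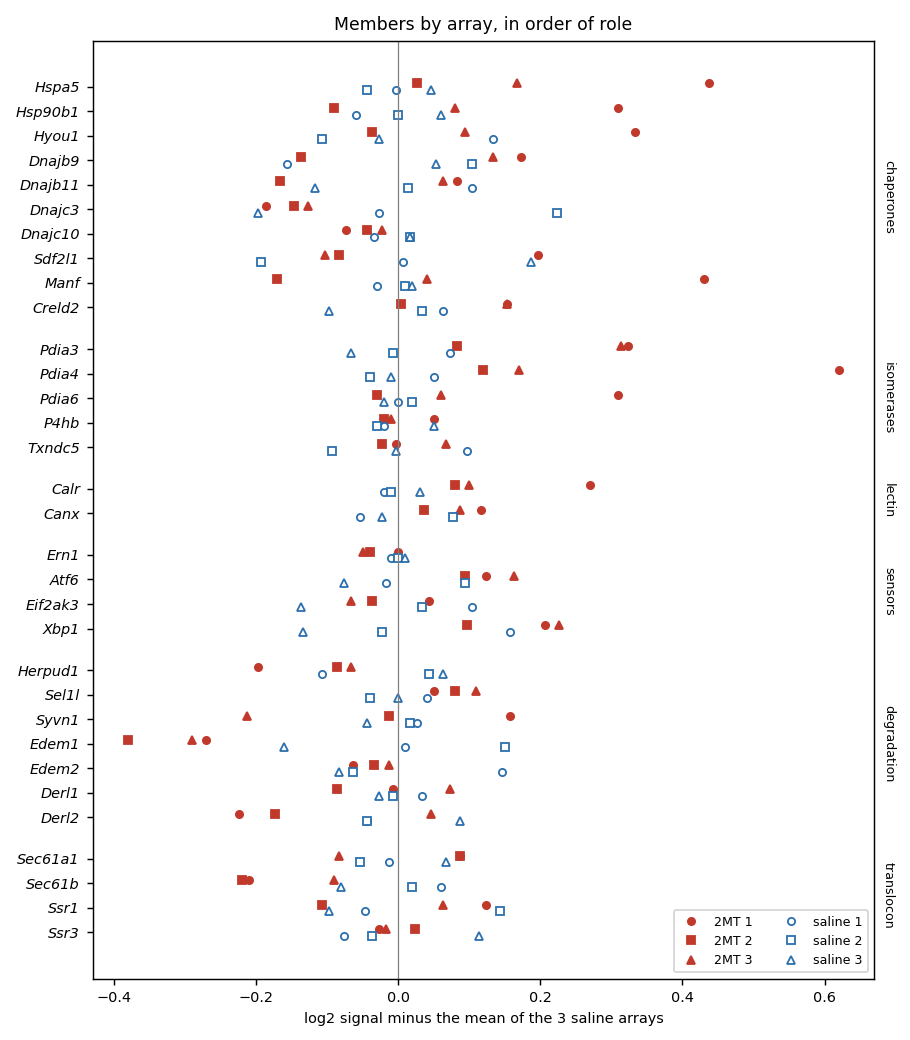
Log2 signal of each of the 32 members (rows, in order of role) on each array, as the distance from that gene's mean over the 3 saline arrays. Filled red symbols are the 2MT arrays and open blue symbols the saline arrays; on 2MT 1, Pdia4, Hspa5 and Manf lie more than 0.4 above the saline mean, while 2MT 2 lies close to or under it for most chaperones.

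The array 2MT 1 stood apart for the folding genes. Among the 17 chaperones, isomerases and lectin chaperones, 2MT 1 held the highest value of all 6 arrays in 11, 2MT 2 and 2MT 3 in 0 each, and saline arrays in 3, with 3 ties. Over all genes tested, 2MT 1 held the highest value in 14.8%. Within the 2MT group, 2MT 1 was highest and 2MT 2 lowest in 12 of these 17 genes (70.6%). This held in 2 of the 15 sensors, degradation and translocon members (13.3%) and in 16.6% of all genes. The joining of these roles was not fixed beforehand, and genes read on the same array are not independent of each other. The median range over the 3 arrays was 0.25 in 2MT and 0.13 in saline for these 17 genes, and 0.16 and 0.18 for all genes. Values without 2MT 1 are given beside the results for the folding genes, with values without 2MT 2 for several of them. Of the 17 genes, 2MT 2 was the lowest 2MT array in 14 (82.4%) and 2MT 1 the highest in 13 (76.5%). The shares of all genes were 32.4% and 31.9%. Which of these 2MT arrays departs from the group was not tested. Mean signals of marker lists of other cell types also ran high on 2MT 1, although not every marker of a list did so. The mean of the 8 fibroblast markers, of a cell type with much secretion, was 7.01 on 2MT 1, 6.82 and 6.97 on 2MT 2 and 3, and 6.88 to 6.92 on saline arrays. That of the 6 smooth muscle and pericyte markers was 6.74 on 2MT 1, 6.51 and 6.57 on 2MT 2 and 3, and 6.61 to 6.66 on saline arrays. Among these markers only Acta2 was highest of all arrays on 2MT 1 (8.71, against 7.71 to 8.26 on the others). Rgs5 was lowest there (9.75, against 9.83 to 9.94), and Myh11, Tagln, Cnn1 and Pdgfrb were each higher on another array. The mean of the 7 endothelial markers was 7.80 on 2MT 1, 7.66 and 7.68 on 2MT 2 and 3, and 7.68 to 7.79 on saline arrays. The 8 macrophage markers were highest on 2MT 1 within the 2MT group (6.41, against 6.20 and 6.30), with saline 3 above it at 6.47. The summed linear signal was highest on 2MT 1 for the smooth muscle list (1507, with 1340 and 1437 on 2MT 2 and 3 and 1377 to 1453 in saline) but not for the fibroblast list, at 2865 to 3088 in 2MT and 2730 to 2911 in saline. None of the 8 fibroblast or the 5 tested smooth muscle markers passed in limma (0 had an unadjusted p under 0.05). The part of these cell types in the result was not tested.

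The chaperones and their helpers did not separate the groups. Hspa5, which encodes BiP, the ER member of the Hsp70 family, was at 10.70, 10.29 and 10.43 on 2MT 1, 2 and 3, against 10.26, 10.22 and 10.31 on saline 1, 2 and 3. The groups overlapped, because 2MT 2 lay under saline 3, and 2MT 1 was far above the rest. The difference was 0.21 ± 0.08 (SE), with a 95% interval of 0.04 to 0.38 and an adjusted p of 0.17. Without 2MT 1 it was 0.10 (adjusted p = 0.45), and without 2MT 2 it was 0.30 and passed (adjusted p = 0.0479). Hsp90b1, which encodes GRP94, the ER form of Hsp90, was at 10.26, 9.86 and 10.03 in 2MT, against 9.89, 9.95 and 10.01 in saline. The lowest and the highest of its 6 values were both 2MT arrays. Its difference of 0.10 (95% interval -0.07 to 0.27) was -0.005 without 2MT 1 and 0.195 without 2MT 2.

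The same order of the 2MT arrays recurred in 3 further genes, singled out after their values were seen. Manf, a secreted ER protein that binds BiP, was at 5.87, 5.27 and 5.48 in 2MT, against 5.41, 5.45 and 5.46 in saline, so that its 2MT arrays lay on both sides of a tight saline group. Hyou1, a nucleotide exchange factor for BiP, was at 7.11, 6.74 and 6.87 in 2MT, against 6.91, 6.67 and 6.75 in saline. Pdia6, a disulfide isomerase, was at 8.93, 8.59 and 8.68 in 2MT, against 8.62, 8.64 and 8.60 in saline. In all 3 the 2MT 1 value was the highest of the 6. Their differences of 0.10, 0.13 and 0.11 became -0.07, 0.03 and 0.02 without 2MT 1. Without 2MT 2, the lowest 2MT array in all 3, they became 0.235, 0.213 and 0.185. The genes were chosen for this order, so the direction of both shifts follows from the choice.

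The J-domain co-chaperones, which bring substrates to BiP and start its ATPase, had differences on both sides of 0. Dnajb9 differed by 0.06 (-0.002 without 2MT 1), Dnajb11 by -0.01 (-0.05 without it), Dnajc10, which also reduces disulfides, by -0.05 (-0.03) and Dnajc3, also an inhibitor of PERK, by -0.15 (-0.14 without 2MT 1, 95% interval with all arrays -0.34 to 0.04, adjusted p = 0.40). The level of Dnajc3 was 7.25, 7.29 and 7.31 in 2MT, against 7.41, 7.66 and 7.24 in saline, where saline 2 was high and saline 3 lay under all 2MT arrays. It has 2 probe sets that hold identical values, and they were counted once. Without 2MT 2 the differences of Dnajb9, Dnajb11, Dnajc10 and Dnajc3 were 0.153, 0.073, -0.048 and -0.157. Sdf2l1, a partner of Dnajb11, differed by 0.003, and by -0.09 without 2MT 1. Creld2, an ER stress-induced protein with disulfide-rich domains, differed by 0.10, and by 0.08 without 2MT 1.

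Among the disulfide isomerases, which form and rearrange disulfide bonds in folding proteins, all 5 means were higher in 2MT, and 4 of 5 without 2MT 1, where P4hb turned to -0.02. The mean difference of the 5 was 0.14 with all arrays and 0.07 without 2MT 1. Pdia3, the isomerase that works with calreticulin and calnexin on glycoproteins, was at 8.58, 8.34 and 8.57 in 2MT, against 8.33, 8.25 and 8.19 in saline. Each 2MT array lay above each saline array, although 2MT 2 did so by only 0.01. The difference was 0.24 ± 0.07 (SE, 1.18-fold, 95% interval 0.09 to 0.39), and its adjusted p of 0.0688 was the smallest of the 32. It was 0.20 without 2MT 1 (adjusted p = 0.22) and 0.32 without 2MT 2, where it passed (adjusted p = 0.0251).

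Pdia4, which encodes ERp72, had the largest positive difference of the members. It was at 7.02, 6.52 and 6.57 in 2MT, against 6.45, 6.36 and 6.39 in saline, so the groups did not overlap and 2MT 1 lay far above the others. The difference was 0.30 ± 0.11 (SE, 1.23-fold, 95% interval 0.07 to 0.54, adjusted p = 0.15), and 0.15 without 2MT 1. Without 2MT 2 it was 0.395. A second probe set of Pdia4, with a mean of 2.77 and thus under the dim limit, had a difference of -0.23. The mean of both probe sets gave 0.04. P4hb, the classical disulfide isomerase, and Txndc5 differed by 0.01 each, with 95% intervals of -0.11 to 0.12 and -0.15 to 0.17. Without 2MT 1 they were at -0.02 and 0.02.

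The 2 lectin chaperones hold newly made glycoproteins while they fold, and both also bind calcium. Calr, calreticulin, was at 9.40, 9.21 and 9.23 in 2MT, against 9.11, 9.12 and 9.16 in saline. All 2MT arrays lay above all saline arrays, 2 of them by less than 0.1. The difference was 0.15 ± 0.06 (SE, 95% interval 0.03 to 0.27, adjusted p = 0.18), and 0.09 without 2MT 1. Without 2MT 2 it was 0.185. Canx, calnexin, its membrane-bound counterpart, was at 10.03, 9.95 and 10.00 in 2MT, against 9.86, 9.99 and 9.89 in saline, where saline 2 overlapped the 2MT arrays (difference 0.08, 95% interval -0.03 to 0.19, and 0.06 without 2MT 1).

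**Figure D2:**
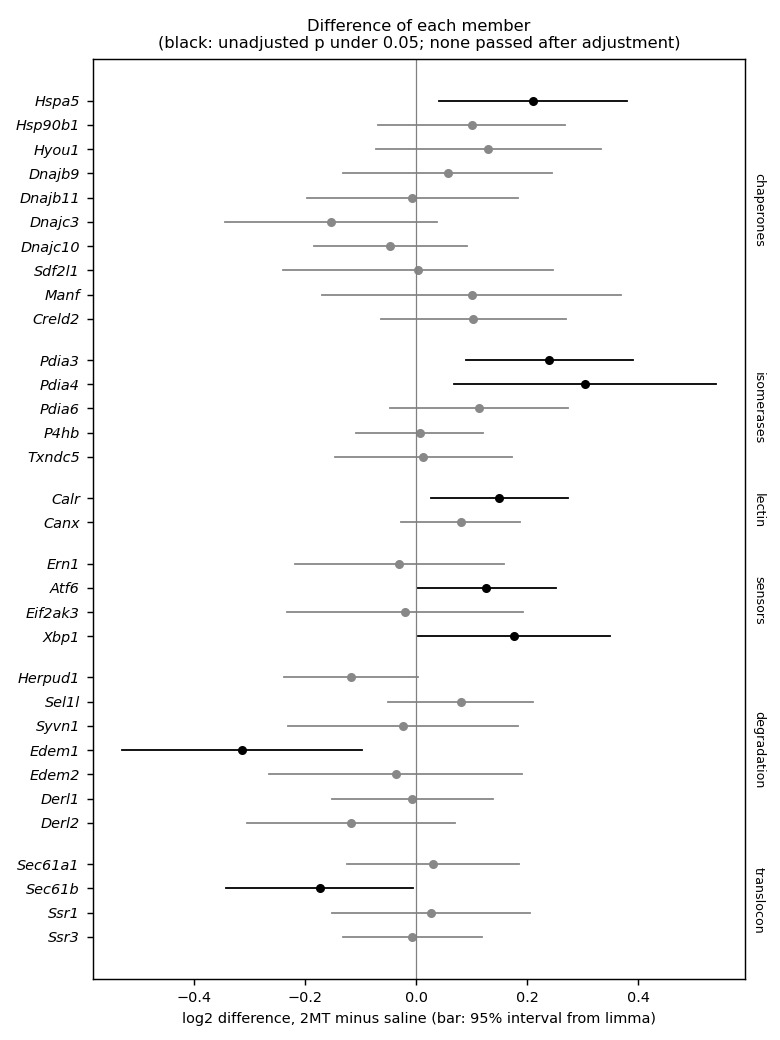
Log2 difference, 2MT minus saline, of each member with its 95% interval from limma, in order of role. Of 32 differences, the 8 in black had an unadjusted p under 0.05; they run from -0.31 for Edem1 to 0.30 for Pdia4, and none passed after adjustment.

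**Figure D3:**
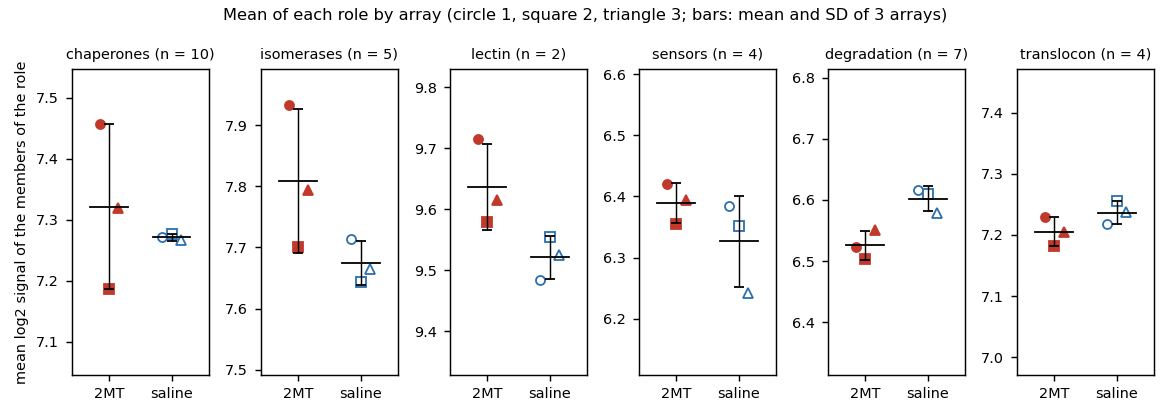
Mean log2 signal of the members of each role on each array (circle, square and triangle for replicates 1, 2 and 3; bars are the mean and SD of 3 arrays), each panel with the same span. For the chaperones the 2MT arrays lie on both sides of the saline arrays, at 7.46, 7.19 and 7.32 against 7.27 to 7.28. For the degradation genes all 2MT arrays lie under all saline arrays, in a mean to which Edem1 (difference -0.31) contributes most.

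The sensors stand at the start of the response. Atf6, a membrane-bound transcription factor that is cut free under stress, was at 8.50, 8.47 and 8.54 in 2MT, against 8.36, 8.47 and 8.30 in saline, where saline 2 equalled 2MT 2. The difference was 0.13 ± 0.06 (SE, 95% interval 0.001 to 0.25, adjusted p = 0.28). Xbp1, whose mRNA is spliced by IRE1 to encode a transcription factor, was at 7.09, 6.98 and 7.11 in 2MT, against 7.04, 6.86 and 6.75 in saline. Its groups overlapped through saline 1, and the difference was 0.18 ± 0.08 (SE, 95% interval 0.004 to 0.35, adjusted p = 0.27). With each array left out in turn, the difference of Atf6 ran from 0.09 (without saline 3) to 0.17 (without saline 2), and that of Xbp1 from 0.11 (without saline 3) to 0.26 (without saline 1); without 2MT 1 they were 0.13 and 0.16. The deposited value is 1 number for Xbp1 and does not separate its spliced from its unspliced form.

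Ern1, which encodes IRE1, was at 5.10, 5.06 and 5.05 in 2MT, against 5.09, 5.10 and 5.11 in saline, all within 0.06 of each other (difference -0.03, 95% interval -0.22 to 0.16). Eif2ak3, which encodes PERK, the kinase that slows translation, was at 4.99, 4.91 and 4.88 in 2MT, against 5.05, 4.98 and 4.81 in saline (difference -0.02, 95% interval -0.23 to 0.19). In both genes the groups overlapped.

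The degradation members were lower in 2MT in 6 of 7 means, with a median difference of -0.04. Their mean signal was 6.52, 6.50 and 6.55 on the 2MT arrays, against 6.62, 6.61 and 6.58 on the saline arrays. The difference was -0.08 with and without 2MT 1. Its largest part came from Edem1 (-0.31), and the mean without Edem1 was not computed. Edem1, a mannosidase-like protein that marks misfolded glycoproteins for removal, had the largest size of difference of all 32 members. It was at 5.04, 4.93 and 5.02 in 2MT, against 5.32, 5.46 and 5.15 in saline. The groups did not overlap, and the nearest arrays, 2MT 1 and saline 3, lay 0.11 apart. The difference was -0.31 ± 0.10 (SE, 1.24-fold lower, 95% interval -0.53 to -0.10, adjusted p = 0.10). It passed without saline 3, at -0.39 (adjusted p = 0.039). Saline 3 also held the most signal of the 3 erythrocyte markers with a probe set, whose summed linear signal was 129 to 154 on the 2MT arrays, 260 on saline 3 and 137 and 130 on saline 1 and 2. Of the 2 markers tested 0 passed (0 at an unadjusted p under 0.05), and their part in the result was not tested.

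The rest of this group differed less. Herpud1, an ER membrane scaffold of the degradation complex, was at 9.98, 10.09 and 10.11 in 2MT, against 10.07, 10.22 and 10.24 in saline (difference -0.12, 95% interval -0.24 to 0.003, adjusted p = 0.30), with saline 1 inside the range of 2MT. Sel1l, the adaptor of the ubiquitin ligase HRD1, was the one member of this role with a higher mean in 2MT. It was at 7.32, 7.35 and 7.38 in 2MT, against 7.31, 7.23 and 7.27 in saline, which did not overlap, with 0.01 between the nearest arrays (difference 0.08, adjusted p = 0.54). Syvn1, which encodes HRD1, differed by -0.02, Derl1 and Derl2, membrane proteins of the exit channel, by -0.01 and -0.12, and Edem2, a relative of Edem1, by -0.04.

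The translocon members pass new proteins into the ER. Sec61b, a small subunit of the SEC61 channel, was at 6.01, 6.00 and 6.13 in 2MT, against 6.28, 6.24 and 6.14 in saline, so the groups were separated by 0.01. The difference was -0.17 ± 0.08 (SE, 95% interval -0.34 to -0.01, adjusted p = 0.27). Of its 2 other probe sets, the one above the dim limit differed by 0.003 and the one below it by -0.12. Sec61a1, the pore of the channel, differed by 0.03, and Ssr1 and Ssr3, subunits of the translocon-associated protein complex, by 0.03 and -0.01.

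The values of members with and without the exact stress element are given side by side as a description, and the difference between these sets was not tested. Of the 8 with the element, 6 had a higher mean in 2MT (median difference 0.10), and of the 19 with a window and no exact match 9 had one (median -0.01). Without 2MT 1 the counts were 5 of 8 and 6 of 19, and the medians 0.04 and -0.02. Dnajc3 and Syvn1 carry the element and had lower means. All of the 8 except Syvn1 belong to the chaperones, isomerases and lectin chaperones, so the split by element largely follows the role. The set without an exact match includes Herpud1 and Dnajb11, which hold ERSE-II. The parts of element and role were not tested. The mean signal of the 8 was 8.63, 8.42 and 8.47 on 2MT 1, 2 and 3, against 8.42, 8.47 and 8.40 on the saline arrays. Without 2MT 1 it was 8.44 in 2MT and 8.43 in saline. Of the 2MT arrays, 2MT 1 lay above every saline array. 2MT 3 was level with the highest saline array (8.470, against 8.471 on saline 2), and 2MT 2 lay within the saline range. Pdia3 and Pdia4, whose differences were larger than those of all 8, had no exact match and matched with 1 mismatch allowed.

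**Figure D4:**
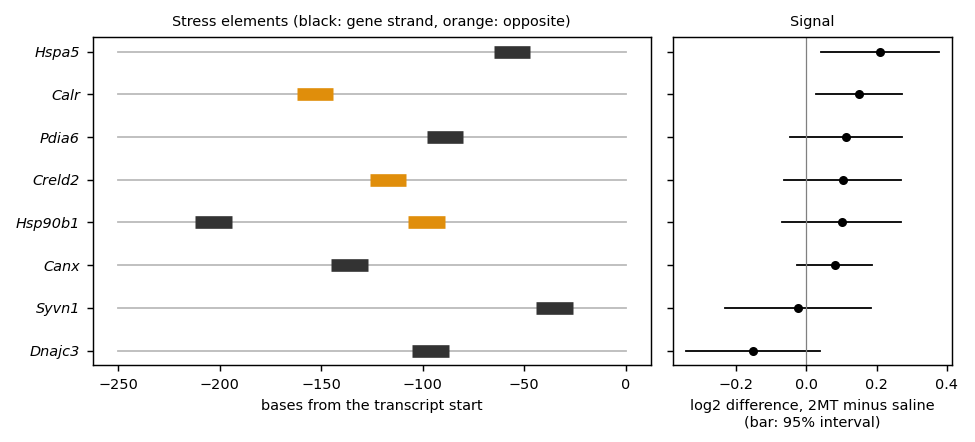
Left, the place of each exact ER stress response element before the transcript start of the 8 members that hold one (black on the strand of the gene, orange on the opposite strand); right, the log2 difference of the same gene, 2MT minus saline, with its 95% interval. The genes run from Hspa5 at 0.21 at the top to Dnajc3 at -0.15 at the bottom, with no order of the distance from the start along the list.

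Other genes of the same pathway were taken in 4 lists, of which 104 of 110 had a probe set with 1 symbol and 94 were tested. Of these 94, 4 rose and 0 fell (4.26%, against 4.63% of all genes), 15 had an unadjusted p under 0.05 (16%, against 17.8% of all genes) and 23 had groups that did not overlap (24.5%, against 21.1% of all genes), both shares near those of all genes. The median difference was 0.01.

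Tmx1, a membrane-bound thioredoxin-like protein of the ER, rose by 0.45 ± 0.06 (SE, 1.37-fold, adjusted p = 8.8e-04). It was at 8.23, 8.08 and 8.02 in 2MT, against 7.65, 7.67 and 7.65 in saline, far apart, and passed under all 16 alternatives. The difference was 0.39 without 2MT 1. Ppib, cyclophilin B, which turns proline bonds during folding, rose by 0.28 ± 0.07 (SE, adjusted p = 0.0418), at 7.89, 7.71 and 7.80 in 2MT, against 7.53, 7.41 and 7.63 in saline. These belong to 30 tested genes of chaperones, oxidoreductases and glycan control, in which 2 rose. The next smallest p values there were those of Erp44, which returns escaped ER proteins (0.18 ± 0.07, adjusted p = 0.18), and Rcn3, a calcium-binding protein (0.20 ± 0.09, adjusted p = 0.29).

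Ost4, a small subunit of the enzyme that attaches glycans, rose by 0.24 ± 0.06 (SE, adjusted p = 0.0277), at 8.25, 8.35 and 8.30 in 2MT, against 8.03, 8.01 and 8.13 in saline. Sec11a, the catalytic subunit of signal peptidase, rose by 0.24 ± 0.06 (SE, adjusted p = 0.0277), at 7.89, 7.82 and 7.81 in 2MT, against 7.62, 7.59 and 7.59 in saline. In both genes the groups lay well apart. They were the 2 that rose among 24 tested translocon, signal peptidase and glycosylation genes, in which Dad1, another glycosylation subunit (0.25 ± 0.07, adjusted p = 0.0633), and Srpr, the receptor of the signal recognition particle (0.18 ± 0.06, adjusted p = 0.11), did not pass. The calls of Ppib, Sec11a and Ost4 were lost without saline 1, saline 2, 2MT 2 or 2MT 3 and without the variance trend, at adjusted p values of 0.0577 to 0.154 for Ppib, 0.0658 to 0.092 for Sec11a and 0.0956 to 0.128 for Ost4. Ppib and Sec11a also lost theirs without 2MT 1 (0.15 and 0.105), and Ppib with no dim filter (0.072).

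Of 22 other degradation genes 0 passed in limma (3 at an unadjusted p under 0.05). The difference of their mean signal was -0.009, and 0.002 without 2MT 1. Ube2g2, a ubiquitin-conjugating enzyme of ER-associated degradation, differed by -0.21 ± 0.06 (adjusted p = 0.0688), at 7.46, 7.32 and 7.44 in 2MT, against 7.63, 7.60 and 7.63 in saline. Rnf5, a ubiquitin ligase, differed by 0.25 ± 0.08, Selenos, which recruits the ATPase p97, by -0.18 ± 0.08, and Vcp, which encodes p97, by -0.09 ± 0.05 (SE, adjusted p = 0.13, 0.25 and 0.31).

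Of 18 other sensor and signalling genes 0 passed in limma (4 at an unadjusted p under 0.05). Ppp1r15a, which encodes GADD34, the stress-induced subunit of the phosphatase that reverses PERK's action, differed by -0.48 ± 0.14 (SE, adjusted p = 0.0682). It was at 4.45, 4.59 and 4.96 in 2MT, against 5.40, 4.98 and 5.07 in saline, near the dim limit and with 0.02 between the groups. It passed without 2MT 3 (adjusted p = 0.0333). Ddit3, which encodes the stress factor CHOP, was at 5.97, 5.92 and 5.93 in 2MT, against 5.63, 5.93 and 5.32 in saline, where saline 2 reached the 2MT level (difference 0.31, adjusted p = 0.19). It passed without saline 2 (adjusted p = 0.0321). Ppp1r15b, the constitutive counterpart of Ppp1r15a, differed by -0.23 and Rtcb, the ligase that joins spliced Xbp1 mRNA, by -0.14 (adjusted p = 0.20 and 0.27).

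**Figure D5:**
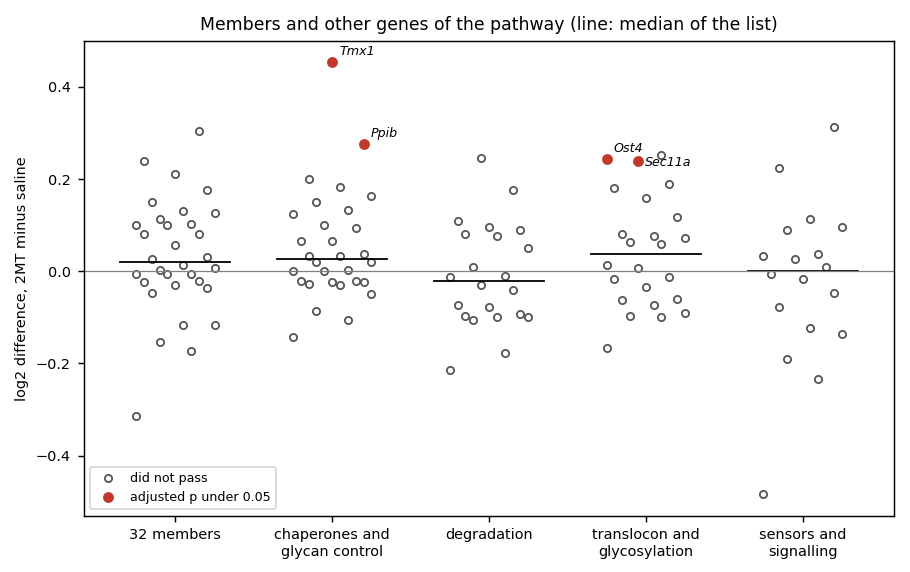
Log2 difference, 2MT minus saline, of each tested gene among the 32 members and the 4 lists of other genes of the pathway; lines are list medians and filled red points passed an adjusted p of 0.05. The 4 filled points are Tmx1, Ppib, Ost4 and Sec11a, between 0.24 and 0.45, and the members have none.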

How the data were processed

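One Affymetrix array was run per sample, from 100 ng of total RNA per the labels' protocols. The authors deposited a single value for each probe set on each array, read here as log2 signal because of its range (0.51 to 13.5, array medians 4.32 to 4.37). MAS5 is named, with no version or role, per the submitters' processing notes; how the arrays were normalized is not given in the sources used here, and no array counts or detection calls were used. The 28944 probe sets comprised 21789 annotated with 1 gene, 1621 with several and 5534 with none here. The brightest probe set stood for each of 19938 genes. A dim limit of 4.345, the median over probe sets, kept 10547 genes.

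The contrast of 2MT with saline was fitted in limma 3.58.1 (R 4.3.3; lmFit and eBayes, variance trend, two-sided, no covariate). Benjamini-Hochberg adjustment ran over the 10547 genes; adjusted p values and 95% intervals are limma's, and "rose" or "fell" means an adjusted p under 0.05. With 3 arrays a group the smallest exact permutation p is 0.1. The procedure was tested on simulated data with 50 changed genes at each size. It recovered 32% of them at 1.2-fold, 64% at 1.3-fold and 100% at 1.5-fold and 2-fold, with 14 false calls. Changes as small as those of the members could thus be missed. The simulated noise was normal and independent between genes, with limma's variance for each gene. A deviation shared by many genes on 1 array, as on 2MT 1 for the folding genes, was not simulated. Recovery for such genes may therefore differ. The members, gene lists and tests were chosen with earlier results of these data known. Every member is accounted for; full values are given for members with an unadjusted p under 0.05 or groups that do not overlap, and for stress sensors and main chaperones, and of each other list the called genes and the 4 with the smallest p are named. Alternatives were quantile normalization, median centring, cyclic loess, no or a stricter dim filter (the 60th percentile), averaged probe sets per gene, separate tests of every probe set, array weights, no variance trend, a block for the replicate number, an offset of 16, a threshold of 0.1 and each array left out. Promoter windows are from RefSeq, GRCm38.p6, whose relation to the array's design build is not stated. Plots used matplotlib 3.10.9 (Python 3.11.15).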

Additional observations from a re-analysis of the deposited data

How the results depend on the processing

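Over 16 alternatives (15 for Edem2 and Eif2ak3, which the stricter dim filter left out), 19 members kept the sign of their difference throughout and 13 changed it in at least 1, and none of those 13 passed in any. A call was gained by 3 members: Pdia3 with the replicate block (1 member called) and without 2MT 2, Hspa5 without 2MT 2, and Edem1 without saline 3. An adjusted p under 0.1 called 1 member and 768 genes, and no variance trend gave 292 genes and 1 other pathway gene. With each array left out in turn, genes called ran from 262 to 648, members called from 0 to 2 and other pathway genes called from 1 to 5. Members with a lower mean in 2MT ran from 11 to 18, and the members' median difference from -0.006 (without 2MT 1, a reversed sign) to 0.06. Members without overlap ran from 7 to 15, against 6 with all arrays. Groups separate more easily with fewer arrays, and the share of all genes without overlap was not computed for these fits. These counts are therefore not read as a result about the members. Correlations of same-numbered arrays across genes were small (0.07, 0.04 and 0.02), against -0.083 to 0.04 for arrays with different numbers. The numbers were not taken as pairs. The replicate block gave 586 genes called, against 488 in the main fit, and 5 other pathway genes, with Dad1 added. Signal over background is unknown, so differences of tested genes with lower signal, such as Edem1, Edem2 and Ppp1r15a, may be understated.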

Other observations

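Besides the 8 members, 5 tested genes held an exact ER stress response element in their promoter window: Alg12, Acacb, Adcy3, Pan2 and Spats2l. Alg12, a mannosyltransferase that builds the glycan attached to new ER proteins, lies head to head with Creld2, and its element is the same stretch of sequence (chr15:88819520-88819538), 202 to 220 bases before its own start. It was at 5.65, 5.31 and 5.44 on 2MT 1, 2 and 3, against 5.25, 5.30 and 5.33 on saline 1, 2 and 3, with 2MT 1 highest and 2MT 2 lowest of its group (difference 0.17, limma adjusted p = 0.39). Creld2 was at 6.52, 6.37 and 6.52 in 2MT, against 6.43, 6.40 and 6.27 in saline, also with 2MT 2 lowest of its group. The median difference of these 5 genes was -0.02 (0.02 without 2MT 1), and 0 of all 13 tested genes with the element passed in limma.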
